A study of Mus musculus with 70 samples.

Results

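The comparison described here set the hippocampus at lights-off against lights-on in non-transgenic (NTG) mice held on time-restricted feeding (TRF). Its members were chosen from the sample titles alone: 7 libraries of 6 animals killed at Zeitgeber time (ZT) 12 and 6 libraries of 6 animals killed at ZT0, which make 13 of the 70 libraries of the series. ZT0 is the hour of lights on and ZT12 that of lights off in a cycle of equal light and dark. ZT0 animals were killed in the light and ZT12 animals in the dark. The animals were littermates, without the transgene, of the APP23 line, strain B6.Cg-Tg(Thy1-APP)3Somm/J, in which the Thy1 promoter drives human APP in neurons. The titles call them WT and the genotype field calls them NTG. Under TRF food was offered for 6 h per day, from ZT15 to ZT21, begun when the mice were 6 to 9 months old and kept up until tissue was taken at 10 to 13 months. The last access to food had therefore ended 3 h before ZT0 and 15 h before ZT12, so the time of day and the time since food cannot be told apart within these animals. The groups set beside them were NTG mice fed ad libitum (ALF; 7 animals at ZT0 and 6 at ZT12) and APP23 transgenic (TG) mice on TRF (6 and 5 animals), of the same strain. The TG mice on TRF were of the same ages, and no age was listed here for the mice on ALF. A further 2 NTG animals on TRF at ZT6 and 2 at ZT18 are given as values only. The sex of single animals is not given. RNA came from the hippocampus of one hemisphere per animal, was selected for poly-A tails and was sequenced in paired reads.

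The circadian clock of mammalian cells is a loop of transcription. The activators BMAL1 and CLOCK switch on genes of the PER, CRY and REV-ERB (Nr1d1, Nr1d2) families through E-box sequences, and the products of these genes then repress the activators or their genes. Output factors such as DBP, which activates through D-box sequences, and NFIL3, which represses through the same sequences, pass the rhythm on to other genes. Many tissues, the hippocampus among them, carry this loop, and it is tuned by light through the suprachiasmatic nucleus, by food and by glucocorticoid hormone. Body temperature also varies over the day and acts on heat shock genes and on cold-inducible RNA-binding proteins, while protein folding in the endoplasmic reticulum (ER) relies on chaperones that the unfolded protein response can raise.

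Values are the authors' normalized read counts, one per gene and library, for 14260 genes. With the smallest step of a library taken as 1 read, the 13 libraries held 30.5 to 43.2 M reads over these genes. Animals are named by their titles. A library titled WT_TRF_12_232R was averaged with WT_TRF_12_232 as the same animal, which the labels do not state. The precursor of ribosomal RNA Rn45s took 0.342% of WT_TRF_12_232 and 4.63% of WT_TRF_12_232R. It took 2.57% of WT_TRF_12_30, 1.32% of WT_TRF_0_118 and 0.0866% to 0.465% of the other libraries compared. Markers of the hippocampal fields were present in every animal: Prox1 of the dentate gyrus lay between 1110 and 1700 normalized counts and Wfs1 of CA1 between 3910 and 6930. Tissue from next to the hippocampus varied between animals. The summed count of 19 choroid plexus genes was 7624 to 10540 in 3 animals at ZT0 and 164000 to 290600 in the other 3 (WT_TRF_0_32, WT_TRF_0_116 and WT_TRF_0_202). At ZT12 it was 10060 to 32920 in 4 animals and 160700 and 229500 in the other 2 (WT_TRF_12_30 and WT_TRF_12_233). Beyond this, 8 genes typical of the striatum summed to 4708 to 10360 at ZT0 and 4208 to 7385 at ZT12, all 8 had a lower mean at ZT12, and their median log2 difference was -0.538, though none passed the test.

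Of the 14260 genes, 85 (0.596%) differed between ZT12 and ZT0 (limma, adjusted p under 0.05). Without adjustment 1224 genes (8.58%) had a p under 0.05. At ZT12, 34 (0.238%) were higher and 51 (0.358%) lower. The genes higher at ZT12 included clock repressors, the cold-inducible genes Rbm3 and Cirbp and the glucocorticoid-induced genes Tsc22d3 and Hif3a. Those lower at ZT12 included the clock activator Bmal1 and 10 chaperones and co-chaperones. Most differences were modest, with a median log2 difference of 0.629 for the higher and -0.473 for the lower genes, and 11 exceeded 1 in size. The 6 animals of one time did not overlap with the 6 of the other in 51 of the 85 genes. Over all genes 128 (0.898%) showed no overlap, 59 (0.414%) with ZT12 above and 69 (0.484%) with ZT12 below. The plot of named differences gives those of smallest p or largest size with their intervals.

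The count depended on the animals and on the model. Fitted on the 12 animals alone, 13 genes were higher and 18 lower, and 27 of these 31 were among the 85. Leaving out 1 animal gave 18 to 38 higher and 31 to 59 lower genes, the fewest higher without WT_TRF_12_142 and the fewest lower without WT_TRF_0_8. With the choroid plexus level as a covariate 43 genes were higher and 61 lower, all 85 among them, and with the striatum level 23 were higher and 38 lower, and 56 of these were among the 85. In every one of these and the other alternatives that tested them, 23 of the 85 kept their call, among them Dbp, Ciart, Nr1d2, Bmal1, Calr, Hspa5, Hsp90b1, Pdia6, Rbm3 and Cirbp.

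**Figure D1:**
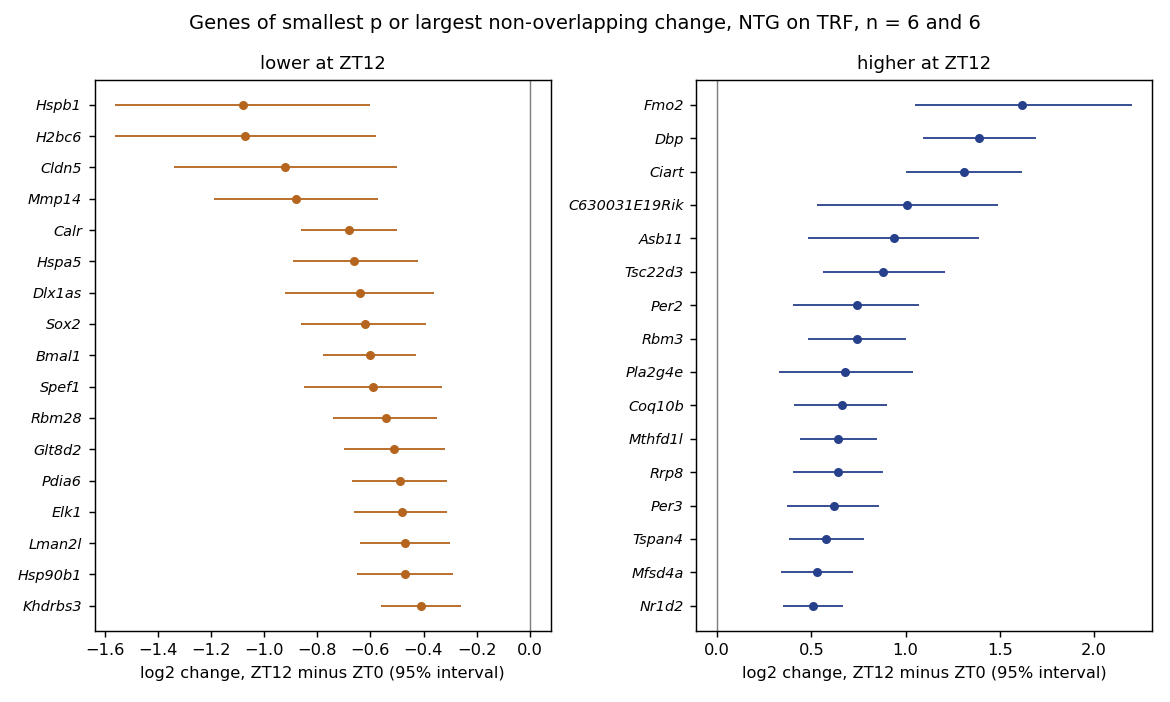
Log2 difference between ZT12 and ZT0 (points) with its 95% interval (bars) for called genes of smallest p or of largest difference without overlap, in NTG mice on TRF (6 animals at each time). Fmo2, Dbp and Ciart had the largest positive values shown, at 1.62, 1.39 and 1.31, and Hspb1 and H2bc6 the largest negative ones, at -1.08 and -1.07.

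The clock genes Dbp and Ciart had the smallest p-values of all genes. All 10 repressors had a higher mean at ZT12 than at ZT0, with a median log2 difference of 0.411, against 51.6% positive values and a median of 0.005 over all genes. Over all genes 0.238% were called higher and 0.358% lower. Of these 10 repressors, Ciart, Per2, Per3 and Nr1d2 passed the test. Of 7 activators 1, Bmal1, was lower, and of 7 output genes Dbp and Usp2 were higher and Nfil3 lower. None of 8 genes for the turnover of clock proteins passed. The promoters of 3 clock genes that differed are shown because their windows of 250 bases before to 50 after a gene start (RefSeq, GRCm38.p6) hold an element through which clock proteins act. Capitals mark the element, which is the E-box CACGTG in Ciart (chr3:95882179-95882478, minus strand), the D-box TTATGTAA in Per3 (chr4:151044616-151044915, minus strand) and the binding element TAGGTCA of ROR and REV-ERB receptors in Bmal1 (chr7:113207261-113207560, plus strand).
Ciart: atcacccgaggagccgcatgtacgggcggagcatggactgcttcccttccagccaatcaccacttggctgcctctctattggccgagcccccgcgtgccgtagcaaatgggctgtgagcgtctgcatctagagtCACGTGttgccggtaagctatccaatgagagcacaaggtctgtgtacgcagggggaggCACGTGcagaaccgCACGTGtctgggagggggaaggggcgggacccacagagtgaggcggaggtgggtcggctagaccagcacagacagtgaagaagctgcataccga
Per3: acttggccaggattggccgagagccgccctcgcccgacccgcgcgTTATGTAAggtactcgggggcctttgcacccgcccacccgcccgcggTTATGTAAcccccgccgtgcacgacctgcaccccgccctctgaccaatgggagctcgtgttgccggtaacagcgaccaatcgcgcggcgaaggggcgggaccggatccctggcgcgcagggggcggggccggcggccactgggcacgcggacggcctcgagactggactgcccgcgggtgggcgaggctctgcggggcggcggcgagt
Bmal1: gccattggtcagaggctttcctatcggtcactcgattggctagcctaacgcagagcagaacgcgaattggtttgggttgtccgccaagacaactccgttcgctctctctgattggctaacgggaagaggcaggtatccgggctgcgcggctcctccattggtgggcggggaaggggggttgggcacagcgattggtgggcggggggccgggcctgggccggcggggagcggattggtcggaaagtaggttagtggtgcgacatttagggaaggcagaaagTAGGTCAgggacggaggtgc
Ciart held 3 E-boxes, the nearest beginning 44 bases before its start. Per3 held 2 D-boxes, beginning 205 and 158 bases before its start. Bmal1 has 2 windows in the table, and in the one shown the element began 31 bases after the start.

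Among all 11045 genes with a RefSeq window, 11.5% held the E-box, 0.724% the D-box and 2.15% the ROR element on either strand. Of 27 such genes higher at ZT12, 7 (25.9%) held the E-box, namely Ciart, Mfsd4a, Net1, Nup93, Coq10b, Tspan4 and Wnt9a, and Per3 and Coq10b (7.41%) held the D-box. Of 41 such genes lower at ZT12, 4 (9.76%) held the E-box, none the D-box, and Bmal1 and Nfil3 (4.88%) the ROR element. The windows printed for Dbp and Nr1d2 in RefSeq held none of these letters. A gene counted as a holder if any of its windows held the letters. The mean number of windows per gene was 1.44 for genes higher at ZT12, 1.17 for those lower and 1.29 for all genes. The shares therefore rest on unequal numbers of windows. Another D-box form, TTACGTAA, was in none of the 27 or 41 genes and in 0.19% of all genes. These are matches of letters and were not tested.

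Dbp, the output activator, had the smallest p of all genes. At ZT0 it lay between 763 and 1112 normalized counts (median 874.6), and at ZT12 between 1890 and 2695 (median 2414). Every ZT12 animal exceeded every ZT0 animal, with a log2 difference of 1.39 ± 0.15 (SE, n = 6 and 6, adjusted p = 5e-09). The 2 animals at ZT6 had 1757 and 1155 and the 2 at ZT18 had 1468 and 1675, between both groups. Of the exonic bases of Dbp, 18% are shared with Sphk2 on the other strand, and whether reads were counted by strand is not given in the sources used here.

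Ciart, a repressor that binds BMAL1 and CLOCK, ran from 215 to 485.4 at ZT0 (median 276.3) and from 649.4 to 1010 at ZT12 (median 704.4). The difference was 1.31 ± 0.15 (adjusted p = 6e-08) and the groups did not overlap. At ZT6 and ZT18 its 4 values lay between 350.6 and 440.1, within the ZT0 range. Nr1d2, which encodes the receptor REV-ERB beta that represses Bmal1, ran from 3282 to 4023 at ZT0 and from 4909 to 5737 at ZT12, a difference of 0.51 ± 0.08 (adjusted p = 8.5e-05). Its paralog Nr1d1 overlapped between the times (5675 to 8059 and 6713 to 8168) and was not called, with 0.17 ± 0.08.

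The Period genes encode the repressors that pair with cryptochromes. Per2 ran from 553.4 to 1332 at ZT0 and from 1384 to 1826 at ZT12 (0.74 ± 0.17, adjusted p = 0.013). Per3 ran from 998.3 to 2042 and from 2090 to 2856 (0.62 ± 0.12, adjusted p = 0.0022). In neither gene did the groups overlap, but both differences lost their call when only the 12 animals were fitted (adjusted p = 0.123 for Per2 and 0.11 for Per3), and Per2 also without WT_TRF_0_8, at 0.103. At ZT18 both genes lay in the ZT12 range, with 1768 and 1554 for Per2 and 2460 and 2360 for Per3.

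Per1, by contrast, overlapped (1970 to 3806 and 2525 to 3817) and was not called at 0.31 ± 0.14 (adjusted p = 0.48). The cryptochromes also missed the threshold, with 0.25 ± 0.10 for Cry1 and 0.10 ± 0.09 for Cry2. Bhlhe41, which competes for E-boxes, did not overlap (892.4 to 1306 and 1344 to 1648), yet its adjusted p of 0.051 fell just short at 0.51 ± 0.13. Its relative Bhlhe40 had 0.20 ± 0.11 with overlap.

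Bmal1 was the one activator that differed, and in the opposite direction to the repressors. It ran from 1288 to 1568 at ZT0 (median 1368) and from 750.1 to 991.5 at ZT12 (median 958.7), without overlap (-0.60 ± 0.09, adjusted p = 1.5e-05). Its values were 1278 and 1202 at ZT6 and 1074 and 882.8 at ZT18. Its partner Clock had -0.04 ± 0.14 and the Clock paralog Npas2 -0.17 ± 0.14, neither called. Nor were Rora (0.27 ± 0.26) and Rorb (-0.21 ± 0.20), receptors that activate Bmal1.

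Among outputs, Nfil3 ran from 260.7 to 526.9 at ZT0 and from 174.4 to 286.1 at ZT12 (-0.71 ± 0.17, adjusted p = 0.03), and 5 of 6 ZT12 animals lay below every ZT0 animal. Usp2, a deubiquitinase under clock control, ran from 1671 to 2426 and from 2299 to 2687 (0.32 ± 0.08, adjusted p = 0.034). Of the 12 fits that left out 1 animal, the call was lost in 6 for Nfil3 (adjusted p = 0.0627 to 0.16) and in 8 for Usp2 (0.0573 to 0.149). Both calls were also lost with the 12 animals alone (adjusted p = 0.117 and 0.168). Nfil3 also lost its call with array weights (0.0531), and Usp2 under median scaling (0.0977) and without WT_TRF_12_232R (0.0548). The DBP relatives Tef (-0.10 ± 0.08) and Hlf (0.06 ± 0.11) and the kinase Wee1 (0.12 ± 0.08) were not called.

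**Figure D2:**
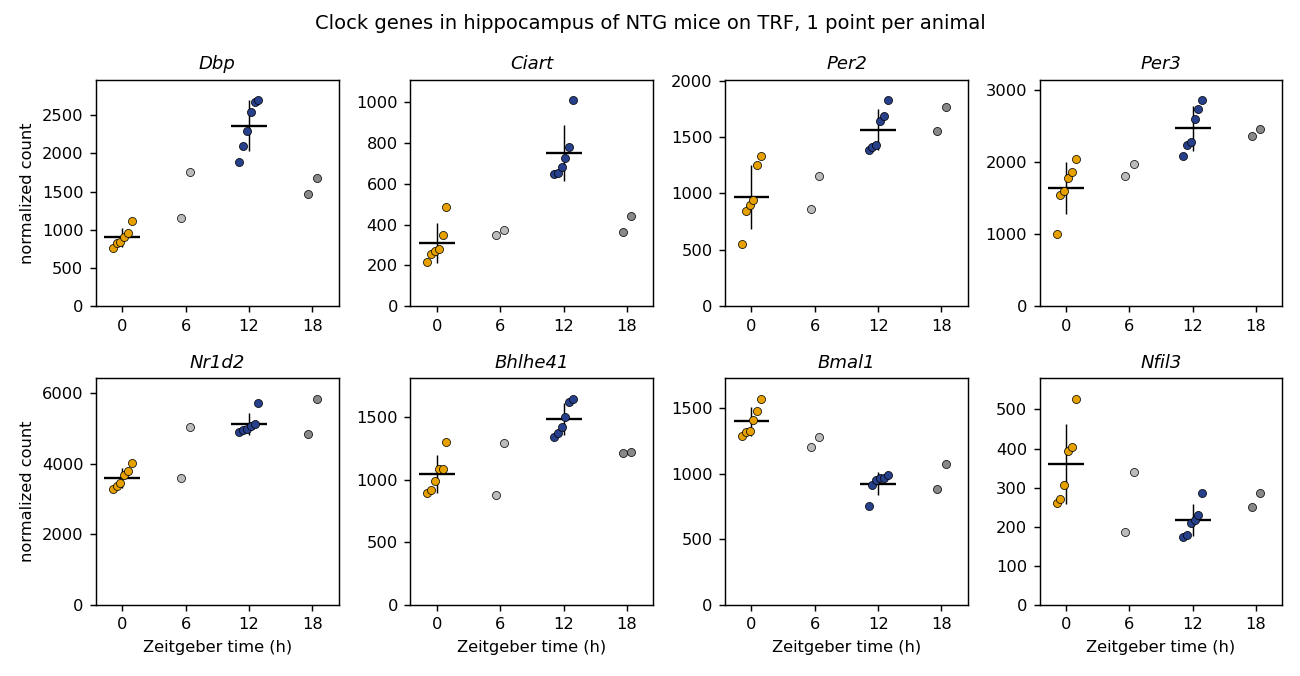
Normalized counts (vertical axis, from 0) of 8 clock genes in single NTG animals on TRF at ZT0 and ZT12 (6 each) and ZT6 and ZT18 (2 each). Lines are the mean and SD at ZT0 and ZT12. Dbp, Ciart, Per2, Per3, Nr1d2 and Bhlhe41 at ZT12 lie above every ZT0 animal, Bmal1 below every one, and Nfil3 overlaps.

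Several chaperones of the ER were lower at ZT12. Of 26 measured members of the list 5 were called, all lower (Calr, Hspa5, Pdia6, Hsp90b1 and Pdia3), where 0.358% of all genes were called lower. Values were negative in 19 members and positive in 26.9%, against 51.6% of all genes, and the median was -0.179 against 0.005. The mean log2 level over the list was 11.17 to 11.40 in the ZT0 animals and 11.06 to 11.13 in the ZT12 animals. The 2 ZT6 animals had 11.07 and 11.10, like those at ZT12, and the 2 ZT18 animals 11.41 and 11.42, above every ZT0 animal. The promoters of 4 of these genes are shown because each holds the ER stress response element (CCAAT, any 9 bases, then CCACG), the sequence bound by the NF-Y and ATF6 factors. Capitals mark its fixed letters and, in Calr, also an E-box. The windows are from RefSeq on GRCm38.p6: Hspa5 (chr2:34771840-34772139, plus strand), Calr (chr8:84846882-84847181, minus strand), Pdia6 (chr12:17266339-17266638, plus strand) and Hsp90b1 (chr10:86705395-86705694, minus strand).
Hspa5: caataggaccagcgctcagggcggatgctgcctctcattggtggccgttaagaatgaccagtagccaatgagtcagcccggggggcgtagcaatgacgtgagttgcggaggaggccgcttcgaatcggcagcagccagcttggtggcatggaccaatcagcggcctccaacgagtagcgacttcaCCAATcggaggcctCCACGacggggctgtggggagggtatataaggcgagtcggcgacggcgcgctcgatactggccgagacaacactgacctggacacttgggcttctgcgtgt
Calr: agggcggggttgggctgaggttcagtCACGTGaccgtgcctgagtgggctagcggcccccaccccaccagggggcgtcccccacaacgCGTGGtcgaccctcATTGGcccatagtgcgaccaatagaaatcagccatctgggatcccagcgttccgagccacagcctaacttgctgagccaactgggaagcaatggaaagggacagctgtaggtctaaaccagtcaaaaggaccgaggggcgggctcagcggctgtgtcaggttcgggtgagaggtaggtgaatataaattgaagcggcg
Pdia6: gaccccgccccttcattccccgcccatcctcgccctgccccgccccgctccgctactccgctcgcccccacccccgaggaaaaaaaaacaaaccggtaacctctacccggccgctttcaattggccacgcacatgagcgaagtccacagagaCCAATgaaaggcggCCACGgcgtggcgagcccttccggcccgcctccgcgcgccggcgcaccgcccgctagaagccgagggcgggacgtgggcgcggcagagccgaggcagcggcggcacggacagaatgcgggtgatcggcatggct
Hsp90b1: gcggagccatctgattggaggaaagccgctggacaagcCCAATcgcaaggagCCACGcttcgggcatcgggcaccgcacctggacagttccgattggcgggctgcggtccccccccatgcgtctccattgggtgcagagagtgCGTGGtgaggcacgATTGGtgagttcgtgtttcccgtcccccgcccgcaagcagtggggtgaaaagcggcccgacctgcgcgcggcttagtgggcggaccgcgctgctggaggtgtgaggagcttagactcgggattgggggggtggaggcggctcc
Hspa5 and Pdia6 held the element 65 and 98 bases before the start. Calr held it on the other strand, and Hsp90b1 held it on each strand. It was found in 9 of 23 windows of the list (39.1%), in 4 of 41 genes lower at ZT12 (9.76%), in none of 27 higher and in 17 of 11045 genes in all (0.154%). Members of the list without a call, such as Canx, Creld2 and Syvn1, also held it.

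Calr encodes calreticulin, a lectin that binds calcium and folds glycoproteins. It ran from 7805 to 10731 normalized counts at ZT0 (median 8945) and from 5351 to 6222 at ZT12 (median 5505). The groups stood well apart, at -0.68 ± 0.09 (adjusted p = 1.4e-06). At ZT6 it had 6651 and 5456, and at ZT18 8039 and 7294.

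Hspa5 encodes BiP, the main HSP70 of the ER and a sensor partner of the unfolded protein response. It ran from 10324 to 14234 at ZT0 (median 12697) and from 7461 to 8331 at ZT12 (median 7752), a difference of -0.66 ± 0.12 (adjusted p = 0.00056). The 6 ZT12 animals lay close together below all ZT0 animals. The ZT6 animals (7125 and 8350) lay near the ZT12 range, while those at ZT18 (14250 and 16754) were above the highest ZT0 animal.

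Hsp90b1, the HSP90 of the ER, ran from 12629 to 16664 and from 9617 to 12136 (-0.47 ± 0.09, adjusted p = 0.001), without overlap, and 10.3% of its exonic bases are shared with 1810014B01Rik on the other strand. The disulfide isomerase Pdia6 ran from 3267 to 5001 and from 2762 to 3365 (-0.49 ± 0.09, adjusted p = 0.0009), with 5 of 6 ZT12 animals below all ZT0 animals. Pdia3, an isomerase that works with calreticulin and was named after its values were seen, had -0.34 ± 0.08 (adjusted p = 0.017) and no overlap. Its call was lost with the 12 animals alone, with the striatum covariate and without WT_TRF_0_116, WT_TRF_0_32, WT_TRF_0_8 or WT_TRF_12_232.

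In the cytosolic heat shock list, 5 of 26 measured members were called, all lower at ZT12 (Stip1, Hsph1, Dnaja4, Hspb1 and Hspa1b), against 0.358% of all genes. Of the 26 values 24 were negative and 7.69% positive, against 51.6% positive over all genes, and the median was -0.205 against 0.005. Stip1, the co-chaperone that links HSP70 to HSP90, ran from 6149 to 8865 at ZT0 and from 5303 to 6057 at ZT12 (-0.37 ± 0.07, adjusted p = 0.0017), without overlap. Hsph1, a nucleotide exchange factor of HSP70, ran from 9510 to 14232 and from 7988 to 10009 (-0.39 ± 0.08, adjusted p = 0.0022), with overlap in 1 ZT12 animal. Dnaja4, a J-domain co-chaperone, ran from 2433 to 3221 and from 2049 to 2357 (-0.34 ± 0.07, adjusted p = 0.0028), and 44.1% of its exonic bases are shared with Wdr61 on the other strand. These 3 calls were lost with the 12 animals alone, at adjusted p = 0.115, 0.111 and 0.065.

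Hspb1, the small heat shock protein HSP27, showed the largest difference of the list. It ran from 231.4 to 510.1 at ZT0 (median 276.5) and from 99.6 to 194.1 at ZT12 (median 138.1), without overlap (-1.08 ± 0.24, adjusted p = 0.012). The highest value belonged to WT_TRF_0_116, and without it the adjusted p was 0.0738. It was 0.0555 without WT_TRF_12_142 and 0.052 with the striatum level as a covariate. Hspa1b, an inducible HSP70 named after its values were seen, had -0.59 ± 0.14 (adjusted p = 0.015), a call lost with the 12 animals alone and without WT_TRF_0_116, WT_TRF_0_8 or WT_TRF_12_233. Its near-identical copy Hspa1a shares reads with it, so the split between them is uncertain. At ZT18, Hspb1 had 448.8 and 411.5 and Hspa1b 634.5 and 681.2, in the range of the ZT0 animals or above it. The heat shock element (GAA, any 2 bases, TTC, any 2 bases, GAA) was in 4 of 21 windows of the list (19%, Hsph1, Hspe1, Hspd1 and Chordc1), against 0.579% of all genes, and among the 5 called members only in that of Hsph1.

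**Figure D3:**
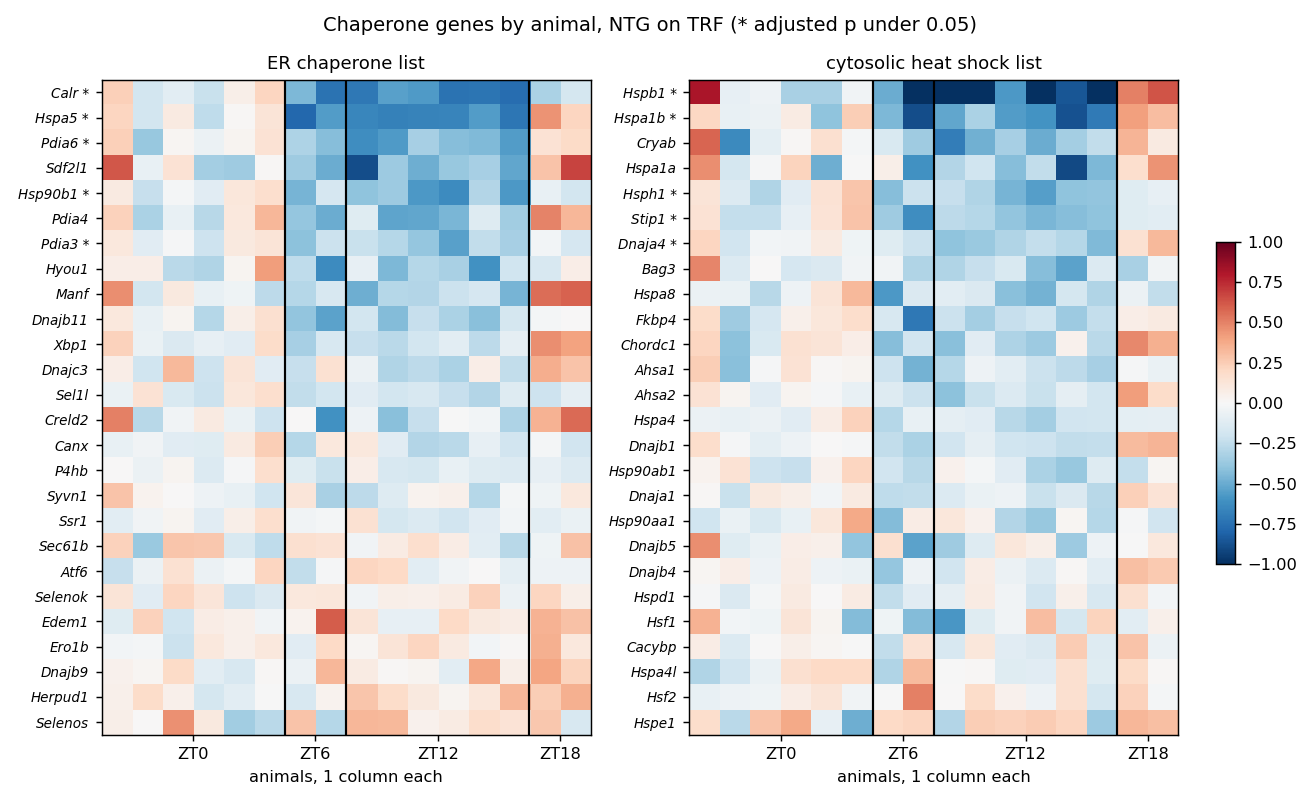
Log2 value of each member of the ER chaperone and cytosolic heat shock lists minus its mean over the ZT0 animals (colour, shown up to 1 in size), with 1 column per NTG animal on TRF, grouped by time. Calr and Hspa5 are below the ZT0 mean in every ZT12 and ZT6 animal, and asterisks mark the 10 called genes.

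Both cold-inducible genes were higher at ZT12. Rbm3, an RNA-binding protein induced by mild cooling, ran from 1455 to 2853 at ZT0 (median 1898) and from 3104 to 3692 at ZT12 (median 3315), without overlap (0.74 ± 0.13, adjusted p = 0.00053). Cirbp, its relative, ran from 1599 to 2632 and from 2560 to 3492 (0.68 ± 0.14, adjusted p = 0.0055), with 1 ZT12 animal inside the ZT0 range. At ZT0 the animals differed among themselves: WT_TRF_0_118 and WT_TRF_0_202 were the highest for both genes, and their mean log2 levels of the pair were 11.35 and 11.34 against 10.62 to 10.90 in the other 4. The ZT12 animals ranged from 11.59 to 11.73.

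The same pair of ZT0 animals stood out in the list of glucocorticoid-induced genes, with mean levels of 10.83 and 10.85 against 9.86 to 10.42 in the other 4 and 10.39 to 11.04 at ZT12. Of 23 measured members 19 (82.6%) were positive, against 51.6% of all genes, and the median was 0.264 against 0.005. Tsc22d3 and Hif3a were called higher, as were 0.238% of all genes. Tsc22d3 encodes GILZ, a mediator of glucocorticoid action. It ran from 1407 to 2662 and from 2776 to 4547 (0.88 ± 0.16, adjusted p = 0.00094), without overlap, though with the 12 animals alone its adjusted p was 0.0722. Hif3a, a hypoxia-inducible factor subunit that glucocorticoids raise, ran from 139.1 to 677.7 and from 542.7 to 1132 (1.40 ± 0.33, adjusted p = 0.019), with WT_TRF_0_118 within and WT_TRF_0_202 just below the ZT12 range. That call was lost in 6 of the 12 fits that left out 1 animal (adjusted p = 0.0567 to 0.106) and with the 12 animals alone (0.285). The transcription factor Klf9 of this list (0.23 ± 0.07, adjusted p = 0.1) missed the threshold. So did Klf15 (0.40 ± 0.11, adjusted p = 0.066), which stands in the list of insulin signalling and FOXO targets instead. No hormone or temperature values were used here.

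**Figure D4:**
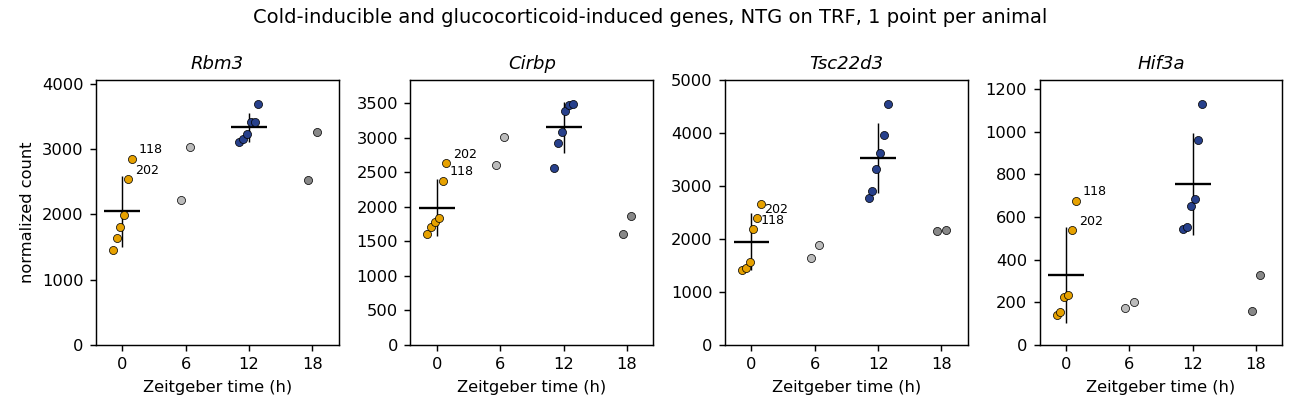
Normalized counts (vertical axis, from 0) of Rbm3, Cirbp, Tsc22d3 and Hif3a in single NTG animals on TRF, with mean and SD at ZT0 and ZT12 (6 animals each). WT_TRF_0_118 and WT_TRF_0_202, labelled by their last number, are the 2 highest ZT0 points in all 4 genes. Rbm3 and Tsc22d3 at ZT12 lie above every ZT0 animal.

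Outside these groups, the called genes higher at ZT12 covered several enzymes and carriers. The share of all genes called higher was 0.238%. Fmo2, a flavin monooxygenase, ran from 45.5 to 240.5 at ZT0 and from 207.7 to 580.5 at ZT12 (1.62 ± 0.29, adjusted p = 0.00056), and its call was lost with the 12 animals alone (adjusted p = 0.153). Mthfd1l, the mitochondrial formate-producing enzyme of one-carbon metabolism and the 1 called gene of 22 ATF4 targets, ran from 379.1 to 559.5 and from 545.8 to 1001 (0.64 ± 0.10, adjusted p = 0.00012). Coq10b, a protein of coenzyme Q function in mitochondria, ran from 352.3 to 536.8 and from 585 to 729.3 (0.66 ± 0.12, adjusted p = 0.001), without overlap. The membrane proteins Tspan4 (0.58 ± 0.10) and Mfsd4a (0.53 ± 0.09) also did not overlap, whereas Rrp8 (0.64 ± 0.12), which acts on ribosomal DNA and RNA, did. Among less abundant genes, the phospholipase Pla2g4e (0.68 ± 0.18), Asb11 (0.94 ± 0.23) and the noncoding C630031E19Rik (1.01 ± 0.24) did not overlap. Kcnip4, a partner of Kv4 channels and the 1 called gene of 74 potassium channel genes, had 0.40 ± 0.10 (adjusted p = 0.035). The last 4 lost their calls with the striatum covariate (adjusted p = 0.052, 0.0831, 0.0965 and 0.149). Of the 12 fits that left out 1 animal, Pla2g4e lost its call in 10, C630031E19Rik in 6 and Asb11 and Kcnip4 in 5 each. Asb11, C630031E19Rik and Kcnip4 also lost it with the 12 animals alone (adjusted p = 0.0773, 0.0773 and 0.121), as did Rrp8 (0.0629). Median scaling lost the calls of Pla2g4e (adjusted p = 0.0817) and Kcnip4 (0.0624). Pla2g4e also lost its call under quantile normalization (0.083) and without WT_TRF_12_232R (0.0503). It lost it too in limma without variance trend and robust setting (0.0501).

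Other genes lower at ZT12 stood outside the clock and chaperone lists. The share of all genes called lower was 0.358%. Mmp14, a membrane-bound matrix protease and the 1 called gene of 68 of collagen and basement membrane, ran from 521.1 to 923.7 at ZT0 and from 319.5 to 447.9 at ZT12 (-0.88 ± 0.16, adjusted p = 0.0006), without overlap. Cldn5, the tight junction claudin of brain endothelium, ran from 957.3 to 1763 and from 576.9 to 782 (-0.92 ± 0.21, adjusted p = 0.015), also without overlap. In bulk tissue fewer cells of a type and less RNA per cell cannot be told apart. Of 12 endothelial markers 4 were positive, against 51.6% of all genes, and the median was -0.123 against 0.005. In NTG mice on ALF 5 of them were called lower, where 1.23% of all genes were. In TG mice on TRF 1 was, against 2.07% of all genes. In NTG mice on TRF their summed count was 8830 to 13400 at ZT0 and 8830 to 11300 at ZT12, and Cldn5 was the 1 member called. Its adjusted p was 0.0673 with the striatum covariate and 0.0696 without WT_TRF_0_8.

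Sox2 and Sox9 are transcription factors of neural progenitors and astrocytes. Sox2 ran from 1737 to 2324 at ZT0 and from 1111 to 1632 at ZT12 (-0.62 ± 0.12, adjusted p = 0.00094), and Sox9 from 1583 to 2049 and from 939.2 to 1474 (-0.57 ± 0.12, adjusted p = 0.009), both without overlap. Without WT_TRF_12_142 the adjusted p of Sox9 was 0.0555. The other 13 genes of the astrocyte list, in which Sox9 stands, were not called, 8 of the 14 values were positive, and the list summed to 207000 to 286000 at ZT0 and 226000 to 269000 at ZT12. The activity-linked factor Elk1 ran from 3131 to 3637 and from 2189 to 2569 (-0.48 ± 0.09, adjusted p = 0.0006).

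Of RNA-binding proteins, Khdrbs3 (6371 to 7442 and 4754 to 5432, -0.41 ± 0.07) and Rbm28 (1964 to 2737 and 1396 to 1849, -0.54 ± 0.10) did not overlap between the times. Of 31 splicing factors 16 were positive, against 51.6% of all genes. Hnrnpc was the 1 called member (-0.30 ± 0.07, adjusted p = 0.015), where 0.358% of all genes were called lower. Its call was lost with the 12 animals alone (adjusted p = 0.126), under quantile normalization (0.0915) and without WT_TRF_0_8 (0.0656) or WT_TRF_12_30 (0.0627). Lman2l, a cargo receptor of the secretory pathway, had -0.47 ± 0.09, and the glycosyltransferase-like Glt8d2 -0.51 ± 0.10. Also lower without overlap were the histone gene H2bc6 (-1.07 ± 0.24), the antisense RNA Dlx1as (-0.64 ± 0.14) and Spef1 of cilia and microtubules (-0.59 ± 0.13). The call of H2bc6 was lost with the 12 animals alone (adjusted p = 0.157), without WT_TRF_0_116 (-0.85, adjusted p = 0.115) and without WT_TRF_12_10 (0.0991). That of Spef1 was lost with the 12 animals alone (adjusted p = 0.087) and without WT_TRF_0_116 (0.0545). Dlx1as shares 20.6% of its exonic bases with Dlx1 on the other strand and H2bc6 11.2% with Hist1h1e on the same strand, so their counts are uncertain.

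Npas4, a transcription factor induced by neuronal activity, was the 1 called gene of 36 immediate early genes, where 0.358% of all genes were called lower. It ran from 159.4 to 845.3 at ZT0 (median 624) and from 126.4 to 322.6 at ZT12 (median 190.3), with -1.17 ± 0.28 (adjusted p = 0.019). The groups overlapped, since the lowest ZT0 animal lay below most ZT12 animals. The adjusted p was 0.403 with the 12 animals alone, 0.0531 with array weights and 0.0955 with the striatum covariate, and the call was lost in 6 of the 12 fits that left out 1 animal (adjusted p = 0.0552 to 0.102). Over the list 27 of 36 values were negative and 25% positive, against 51.6% positive over all genes. The median was -0.187 against 0.005.

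In several lists that fit feeding and energy use no member was called. Of all genes, 51.6% had a positive value, with a median of 0.005. Among 27 genes of fat oxidation and ketone use 13 were positive and the median was -0.018, with Slc16a1, a carrier of lactate and ketone bodies, at -0.28 ± 0.08 (adjusted p = 0.11). Among 28 genes of insulin signalling and FOXO targets 11 were positive. Klf15 had the smallest p of them (0.40 ± 0.11, adjusted p = 0.066), and the kinase gene Akt2 had -0.33 ± 0.10 (adjusted p = 0.15). Of 21 genes of cholesterol synthesis 18 were positive with a median of 0.133. Its enzymes Lss (538.8 to 805 and 805.5 to 962.2, adjusted p = 0.11) and Fdps (1445 to 1863 and 1890 to 2132, adjusted p = 0.24) did not overlap between the times but were not called.

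The 79 nuclear genes of the respiratory chain had 65 positive values and a median of 0.074, and the 37 proteasome genes 31 and 0.073, with no member called in either. Of the 80 cytosolic ribosomal protein genes 36 were positive (median -0.012), against 51.6% of all genes (median 0.005). Glutamate receptors (22 genes), GABA receptors (15), presynaptic fusion genes (27), neuropeptides (14) and autophagy genes (21) had medians between -0.020 and 0.032 and no call. Of the marker lists for excitatory neurons, interneurons, oligodendrocytes and their precursors, microglia, mural cells, meninges and the hippocampal fields, none had a called member. At these group sizes a p that misses the threshold does not show that a gene stays level.

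The same contrast in other animals gave the same signs. In NTG mice on ALF 310 genes (2.17%) were called, 0.94% higher and 176 (1.23%) lower at ZT12. All 85 genes called under TRF had the same sign there, against 66.4% of all genes, and 53 were called, which is 62.4% of the 85 and 17.1% of the 310. In TG mice on TRF 506 genes (3.55%) were called, 1.48% higher and 295 (2.07%) lower. Again all 85 had the same sign, against 63.6% of all genes, and 53 were called, which is 10.5% of the 506. Across the 3 groups 39 genes were called in each, including Dbp, Ciart, Nr1d2, Bmal1, Nfil3, Rbm3, Cirbp, Calr, Hspa5, Hsp90b1, Pdia6, Pdia3, Stip1, Hsph1 and Dnaja4. The plot of differences in the 3 groups shows the 85 genes with equal signs, not at equal sizes. Genes called higher had medians of 0.629 in NTG mice on TRF, 0.447 in NTG mice on ALF and 0.603 in TG mice. For those called lower the medians were -0.473, -0.381 and -0.401. All 85 were chosen by their call in NTG mice on TRF, so these medians do not compare sizes evenly.

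**Figure D5:**
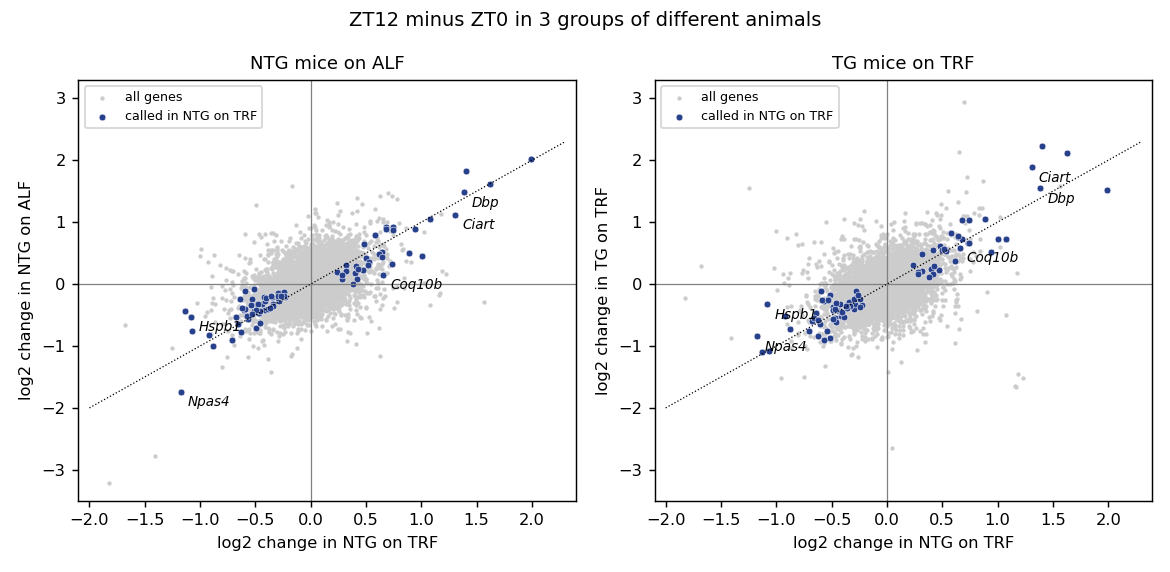
Log2 difference between ZT12 and ZT0 in NTG mice on TRF (horizontal axis) against that in NTG mice on ALF (left) and in TG mice on TRF (right), for all 14260 genes (grey) and the 85 called in NTG mice on TRF (blue). The dotted line marks equal values, and all 85 lie in the quadrants of equal sign.

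No gene passed the adjusted test of a difference in its change between feeding regimes or between genotypes, which does not show that the changes were equal. For NTG mice on TRF against NTG mice on ALF 0 genes (0.0%) passed limma's test of the difference of differences and 405 (2.84%) had an unadjusted p under 0.05. For NTG against TG mice on TRF the numbers were 0 (0.0%) and 624 (4.38%). Both counts stayed 0 under every alternative run. For Dbp the change on TRF minus that on ALF was -0.09 (95% interval -0.51 to 0.32), for Bmal1 -0.18 (-0.43 to 0.06), for Nr1d2 0.20 (-0.02 to 0.42) and for Per2 0.42 (-0.04 to 0.88). Per2 had 0.74 on TRF and 0.32 on ALF, and Nr1d2 0.51 and 0.31. The 10 clock repressors had medians of 0.411 and 0.231. These intervals include 0 and also allow sizeable gaps. For the chaperones it was -0.14 (-0.39 to 0.11) for Calr and -0.01 (-0.33 to 0.31) for Hspa5.

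Against TG mice on TRF, the change of Dbp in NTG mice differed by -0.16 (-0.59 to 0.27) and that of Ciart by -0.58 (-1.03 to -0.13, unadjusted p = 0.012, adjusted p = 1.0). Ciart was higher at ZT12 by 1.31 in NTG and by 1.89 in TG mice. Hspb1 was lower by 1.08 in NTG mice, but had -0.33 in TG mice, a difference of -0.75 (-1.45 to -0.05, unadjusted p = 0.035). The list of glucocorticoid-induced genes had 2 of 23 members called in NTG mice on TRF, 3 higher and 1 lower in NTG mice on ALF and 15 in TG mice on TRF, with medians of 0.264, 0.188 and 0.755. Immediate early genes had 1, 13 and 2 members called lower, with medians of -0.187, -0.505 and -0.153, and 1 called higher in TG mice. In the same order of groups, 0.238%, 0.94% and 1.48% of all genes were called higher. The shares called lower were 0.358%, 1.23% and 2.07%. Since no gene passed the test of the difference, these counts do not show that the groups differ.

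The genes of smallest p for a difference between feeding regimes were 4930473A02Rik, Insc, Pdk4, Arid5a and Gm6485 (adjusted p = 0.995 for each). Pdk4, a kinase that slows glucose oxidation and rises in fasting, had 0.05 ± 0.13 under TRF and -0.58 under ALF, a difference of 0.63. Arid5a, an RNA-binding regulator, had -0.02 ± 0.14 and -0.66. For genotype they were Itgam, Fibin, Cdc42ep3, Cdkn1a and Pnpla2. Itgam, an integrin of microglia, had 0.10 ± 0.11 in NTG and -0.58 in TG mice on TRF (difference 0.68, adjusted p = 0.535), and 68.7% of its exonic bases are shared with Gm49368. Cdkn1a, a cell cycle inhibitor that glucocorticoids can raise, had -0.39 ± 0.27 in NTG and 1.05 in TG mice, and Pnpla2, a triglyceride lipase, -0.01 ± 0.15 and 0.78.

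Of the 85 genes, 6 had an unadjusted p under 0.05 for the difference from ALF, as had 2.84% of all genes. They were named after this was seen (Net1, Ttc21b, Coq10b, Dlx1as, Spef1 and Haus8). All 85 were chosen by their change in NTG mice on TRF, which enters the differences from ALF and from TG mice. Their p-values and intervals for these differences are therefore not an even test. Coq10b was higher by 0.66 under TRF and had 0.15 under ALF, a difference of 0.51 (0.16 to 0.85, unadjusted p = 0.0045). Likewise 5 had an unadjusted p under 0.05 for the difference from TG mice (Glt8d2, Ttc21b, Ciart, Hspa1b and Hspb1), as had 4.38% of all genes. Glt8d2 was lower in NTG mice by 0.51 and in TG mice by 0.87.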

How the data were processed

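RNA of the hippocampus was measured in 13 libraries of 12 animals, and all 70 libraries (69 animals) shared one estimate of the spread. The unit of the deposited table is a signal, the read count of a gene divided by a factor for its library. GRCm38 is the build in the submitters' processing notes, which list DESeq2 beside HISAT2 and featureCounts. Versions, annotation and strand setting are not given in the sources used here. Reads were trimmed with Trimmomatic, per the labels' protocols. No listed gene averaged under 40.9, so low genes had been removed by a rule not stated.

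Libraries WT_TRF_12_232 and WT_TRF_12_232R were averaged. Tests used log2 of the value plus 1, so differences of low genes are understated. The model had 16 means, one for each genotype, feeding and time. Tests were 2-sided (limma 3.58.1 in R 4.3.3, variance trend, robust), adjusted by Benjamini-Hochberg over all 14260 genes, with 0.05 as the threshold. Intervals are 95%. The same code was tested on simulated data. The 2 differences of differences set the change against that in NTG mice on ALF and TG mice on TRF.

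Gene coordinates and promoter windows came from RefSeq tables on GRCm38.p6 (97.9% of genes matched, and 11045 had a window). Exon overlaps came from a gene annotation of the same build. Named genes were the clock lists, the 12 called genes of smallest p in each direction, the 10 of largest difference without overlap in each direction, up to 4 called per list and direction (or the 2 of smallest p), and the 5 of smallest p for each difference of differences. Some genes that this rule names are not reported here. The members and lists were chosen with earlier results of these data known. Alternatives covered the animals fitted, that library pair, pseudocount, a filter, scaling, variance model, weights and covariates. The striatum covariate was chosen after seeing the data. Counting error was not estimated. The SD over genes of the log2 difference between WT_TRF_12_232 and WT_TRF_12_232R was 0.269. It was 0.348 to 0.467 between ZT12 libraries other than these. Between WT_TRF_12_232 and WT_TRF_12_144 it was 0.262, and between WT_TRF_12_232R and WT_TRF_12_233 0.477.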

Additional observations from a re-analysis of the deposited data

Results flagged for a closer look

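For the named genes the 6 values at each time were searched for a single animal far from the other 5, in 266 groups of which chance alone marks about 1 in 20. It was found in 8. At ZT12 WT_TRF_12_10 had 750.1 normalized counts of Bmal1 (others 908.8 to 991.5) and 5737 of Nr1d2 (others 4909 to 5126). In both it lay farther from the ZT0 animals than the rest. WT_TRF_12_142 had 139.7 of Fbxl21, a ligase subunit for cryptochromes (others 174.1 to 195.2), and was listed at 0 for Slc47a1, an organic cation carrier (others 31.5 to 136.9). WT_TRF_12_233 had 4006 of Cry2 (others 4969 to 5381), and WT_TRF_12_232 had 44.3 of Drd2, a dopamine receptor abundant in striatum (others 77.4 to 96.1). At ZT0 WT_TRF_0_116 had 310 of H2bc6 (others 105.3 to 145.2) and 510.1 of Hspb1 (others 231.4 to 283.3). WT_TRF_0_116 also had the highest striatum sum of all 12 animals (10360) and a choroid plexus sum of 272900. Their part in these values was not tested.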

How the results depend on the processing

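Of the 14260 genes 85 differed between ZT12 and ZT0, 34 higher (0.238% of genes) and 51 lower (0.358%). With the 12 animals alone 31 did (0.0912% higher, 0.126% lower), and with array weights 191 (0.624% higher, 0.715% lower). With the number series of the animals as a covariate 0.372% were higher. Leaving out 1 animal gave 53 to 97 genes, 0.126% to 0.266% higher and 0.217% to 0.414% lower. The count was 53 without WT_TRF_0_8, 54 without WT_TRF_0_32 and 55 without WT_TRF_12_142. Higher genes numbered 18 without WT_TRF_12_142, 21 without WT_TRF_12_10, 21 without WT_TRF_0_32 and 22 without WT_TRF_0_8, and lower genes 31 without WT_TRF_0_8 and 33 without WT_TRF_0_32. The cause was not tested. Of the 31 calls 27 were among the 85, and of the 191 calls 81. Median scaling gave 24 higher and 47 lower genes, so that 33.8% of calls were higher, against 40%. Of the 85 calls 35 held in every fit that left out 1 animal and 23 under every alternative that tested them. Both tests of a difference of differences stayed at 0 calls.

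For the named genes 3705 values were compared: 3578 kept their direction and side of the threshold, 97 lost the call, 21 gained it and 9 changed sign. Sign changes touched 5 genes, none of them called. With array weights Usp9x had -0.036. With the striatum covariate Gsk3b had 0.016, Nampt -0.001 and Neurod6 -0.011. Leaving out 1 animal gave -0.140 to 0.014 for Gsk3b, -0.014 to 0.085 for Nampt, -1.328 to 0.094 for Slc47a1 and -0.050 to 0.124 for Usp9x. Of 44 list medians under each alternative (1232 values) 3 moved beyond the spread between animals. No paired analysis was possible because the numbers in the titles name different animals and no number is shared between the groups compared.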
